A study of Caenorhabditis elegans with 6 samples.

Results

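Long intergenic non-coding RNAs (lincRNAs) of the worm Caenorhabditis elegans other than linc-4 were followed in adults that lack linc-4. Members were all genes of type lincRNA in the authors' deposited table, without linc-4, the deleted gene, and without lep-5. They numbered 174 of the 176 lincRNAs and of 22389 genes with counts in that table. Of these, 168 carry a linc name, and the other 6 carry only a sequence name, such as M04F3.7. The linc-4 group held 3 libraries of adult worms of the N2 background strain in which linc-4 was deleted with CRISPR, and the wild type group held 3 libraries of adult N2 worms. Both groups were grown on solid media, and polyadenylated RNA of whole worms was enriched and sequenced. The sources used here give neither the extent of the deletion, nor the number of independent mutant lines, nor the exact adult age. Nothing in the labels says that the libraries of a group came from separate cultures, so p-values measure only the spread between these libraries, which may be technical.

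A lincRNA is a transcript of RNA polymerase II that lies between protein-coding genes, is usually capped and polyadenylated, is often spliced and holds no long open reading frame. In C. elegans such RNAs were catalogued mainly from RNA sequencing and maps of polyadenylation sites, and for most of them no function is known. Across animals lincRNAs tend to be less abundant and more restricted to particular tissues or stages than messenger RNAs, and some are known to act on genes beside them. The deposited table gives no role to any member, so the members are ordered below by level, by response and by position.

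Libraries held 6560089 to 12790323 reads in linc-4 worms and 3736372 to 7428665 reads in wild type worms. Levels are in CPM, reads per 1000000 reads of the scaled library, and 3 reads in a library amounted to 0.228 to 0.446 CPM in linc-4 worms and 0.457 to 0.772 CPM in wild type worms, a floor that covers counting error only. The deleted gene checked the labels, with 5, 1 and 1 reads in linc-4 libraries against 193, 345 and 234 reads in wild type libraries. The linc-4 group differed from wild type in many other genes too. Of 40 sperm marker genes tested, 21 were higher and none lower, with a summed level of 2466 to 3072 CPM in linc-4 worms and 1371 to 2106 CPM in wild type worms. Of 22 oocyte and germline markers, none was higher and 15 were lower, with a sum of 2912 to 3097 CPM in linc-4 worms and 4187 to 4767 CPM in wild type worms. Of 6 body wall muscle markers 3 were higher and none lower (1667 to 2030 CPM in linc-4 worms, 1022 to 1296 CPM in wild type worms). Of 5 epidermis markers 2 were higher and none lower (991 to 1048 CPM in linc-4 worms, 726 to 1014 CPM in wild type worms). Of 6 intestine markers 2 were higher and 2 lower (3039 to 3291 CPM in linc-4 worms, 3549 to 4312 CPM in wild type worms). None of 6 neuron markers passed the test (357 to 372 CPM in linc-4 worms, 347 to 426 CPM in wild type worms). No marker was at 0 reads. In RNA of whole worms, more cells of a type and more RNA per cell cannot be told apart, and the part of these tissue differences in the lincRNA values below was not tested.

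Most lincRNAs gave few reads in these adults. Reads were found for 146 to 149 of the 174 lincRNAs in each linc-4 library and for 133 to 144 in each wild type library. The mean level reached 1 CPM for 63 lincRNAs in linc-4 worms and for 58 in wild type worms, 10 CPM for 11 in each group, and 100 CPM only for linc-7 in each group. In all 6 libraries together 8 lincRNAs had 0 reads and 50 had 1 to 14 reads. A filter on low counts, which asks for 1.43 unscaled CPM in at least 3 libraries and at least 15 reads in all, kept 49 lincRNAs, or 28.2%. The same filter kept 61.8% of the other counted genes and 66.6% of protein-coding genes. Of the 125 lincRNAs left out of the test, 67 had 15 reads or more.

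A few lincRNAs made up most of the signal. The 10 with the highest mean CPM held 67.7% of all member CPM in linc-4 worms and 65.00% in wild type worms. They were linc-7, linc-15, M04F3.7, linc-8, linc-5, linc-6, linc-9, linc-40, linc-20 and linc-22. The first of them, linc-7, an unspliced 1130-base transcript on chromosome X (positions 16002599 to 16003728, plus strand, WBcel235), had 159.8, 189 and 190.3 CPM in linc-4 libraries and 124, 176 and 135 CPM in wild type libraries. The groups overlapped, through the second wild type library, and the log2 fold change of 0.32 (SE 0.16) did not pass the test in limma-voom (adjusted p = 0.17). Without that library the log2 fold change was 0.46 and linc-7 passed (adjusted p = 0.038). M04F3.7 on chromosome I (4768331 to 4769063, minus strand) had 58.8, 56.0 and 43.4 CPM in linc-4 libraries and 35.7, 41.1 and 55.0 CPM in wild type libraries. Here too the groups overlapped, and its log2 fold change was 0.26 (SE 0.18, limma-voom, adjusted p = 0.34). Of the 10, linc-15 and linc-8 passed the test and are described further on. The other 6 had log2 fold changes of -0.32 in linc-20, -0.13 in linc-9, 0.11 in linc-40, 0.32 in linc-5, 0.35 in linc-22 and 0.46 in linc-6, none of which passed.

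The ranking by CPM above does not allow for transcript length, so levels of different genes were also compared per kilobase of exon. On that scale M04F3.7, with 228 bases of exon, was highest, at 231 CPM per kb in linc-4 worms and 193 in wild type worms. Next in linc-4 worms came linc-15 at 213 CPM per kb, against 94.5 in wild type, linc-7 at 159, against 128 in wild type, and linc-6 at 116, against 82.6 in wild type. In wild type worms the order of linc-15 and linc-7 was the other way round, and the levels of linc-15 and linc-6 lay close together. The others were well below these 4. Next in linc-4 worms were linc-168 at 52.6 CPM per kb, linc-8 at 51.6 and linc-5 at 49.4, and next in wild type worms were linc-20 at 48.4, linc-168 at 43.1 and linc-5 at 40.5. The tested lincRNAs had a median level of 10.3 CPM per kb in linc-4 worms and 6.86 in wild type worms. Tested protein-coding genes with a known exon length, 13435 in number, had medians of 9.77 CPM per kb in linc-4 worms and 9.26 in wild type worms. In wild type worms 20 of the 49 tested lincRNAs lay above the protein-coding median. The filter asks for CPM and not CPM per kb, so a shorter transcript needs a higher level per kb to be tested. It kept 28.2% of lincRNAs and 66.6% of protein-coding genes. These medians therefore compare tested genes only and do not show that lincRNAs as a class are as abundant as messenger RNAs.

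**Figure D1:**
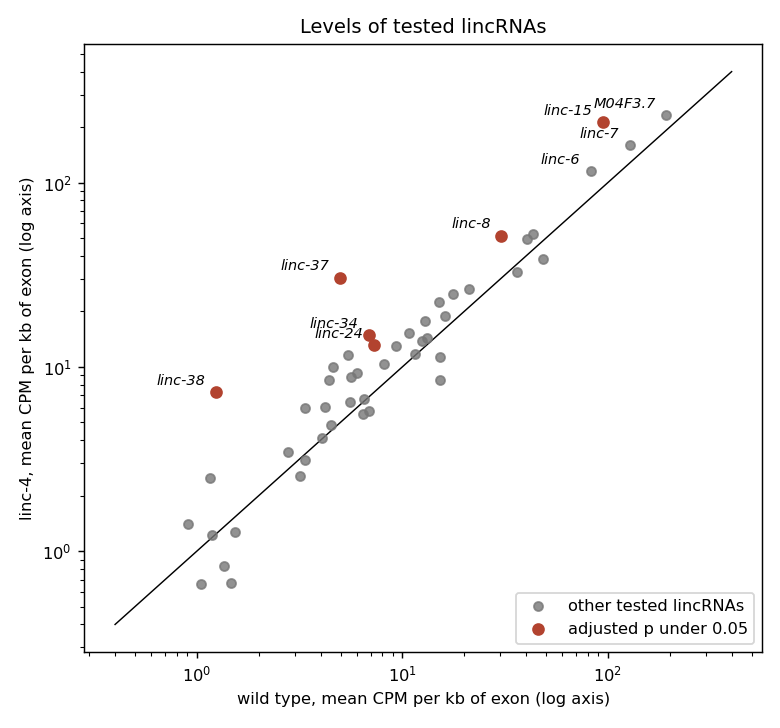
Mean level of each of the 49 tested lincRNAs in linc-4 worms (vertical axis) against wild type worms (horizontal axis), in CPM per kb of exon on log axes, 3 libraries a group. The line marks equal levels and red points mark lincRNAs with an adjusted p under 0.05, all of which lie above the line, with linc-37 and linc-38 farthest from it.

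Loss of linc-4 went with higher levels of 6 other lincRNAs and with lower levels of none that passed the test. The 6 that rose were linc-37, linc-38, linc-34, linc-15, linc-24 and linc-8, by 1.69-fold for linc-8 to 6.72-fold for linc-37, whose fold change moved most of the 6 with the library left out. These 6 of 49 tested lincRNAs are a share of 12.2%, and of all 13778 tested genes 11.5% were called higher in linc-4 worms, so the share is near the background (limma-voom, adjusted p under 0.05 over all tested genes). Among the 6, linc-38 was tested only through its linc-4 libraries and had to be higher there. Of all tested genes 7.18% were called lower, against 0 of 49 lincRNAs. With upper-quartile scaling 9 lincRNAs were called higher, with linc-10, linc-46 and linc-6 added, and none lower, and the split over all tested genes was 14.99% higher and 3.45% lower. At an unadjusted p under 0.05 in limma-voom, 12 lincRNAs were higher and 2 lower, and among all tested genes 18.7% were higher and 15.8% lower. In the authors' deposited table, which compares 133 of the lincRNAs, 5 were called higher, all of them among these 6, and 1, linc-30, was called lower, while of all genes in it 6.59% were called higher and 4.91% lower. Without the second wild type library 7 lincRNAs were called higher and 1, linc-152, lower in place of 0, against 12.0% higher and 8.80% lower over all tested genes.

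Beyond the calls, the fold changes of the tested lincRNAs lay mostly above 0. Of 49, 37 had a log2 fold change above 0 and 12 below it. The median was 0.32 (quartiles 0.03 and 0.63, range -1.28 to 2.75), against -0.01 over all tested genes (quartiles -0.31 and 0.39). Past a 2-fold difference lay 6 of 49 lincRNAs on the higher side and 1 on the lower side, against 6.68% and 0.849% of all tested genes. Of the 49, linc-19 and linc-38 reached the level of the filter in no wild type library and passed through the linc-4 libraries alone, so they had to be higher there, while no lincRNA passed through wild type libraries alone. In the 33 lincRNAs that reached the level in all 6 libraries the median was 0.26, against -0.05 over the 11940 tested genes that did so. Genes with few reads also had higher medians in the whole table. Among genes with 50 to under 100 reads in all, the median was 0.31 for 15 lincRNAs and 0.19 for all tested genes. It was 0.17 for 11 lincRNAs and 0.20 for all genes at 100 to under 200 reads, and 0.50 for 13 lincRNAs and 0.11 for all genes at 200 to under 500 reads. At 500 reads or more, it was 0.32 for 10 lincRNAs and -0.13 for all genes. In these classes from low to high, 1 of 15, 0 of 11, 3 of 13 and 2 of 10 lincRNAs were called higher, against 7.68%, 12.3%, 14.4% and 10.9% of all tested genes.

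**Figure D2:**
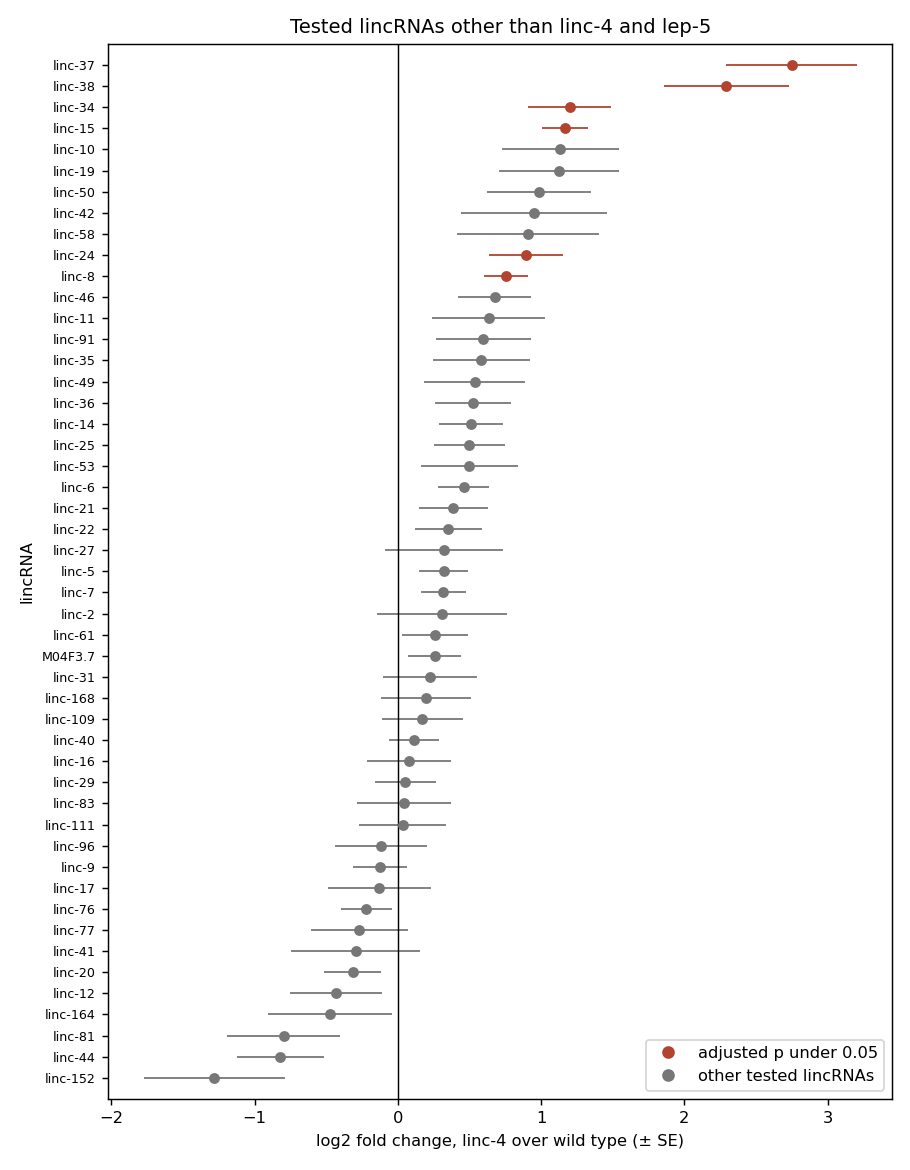
Log2 fold change of each of the 49 tested lincRNAs, linc-4 over wild type, with its standard error as a bar, sorted from highest to lowest. Red points, with an adjusted p under 0.05, all lie right of 0; 37 points lie above 0 and 12 below it.

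**Figure D3:**
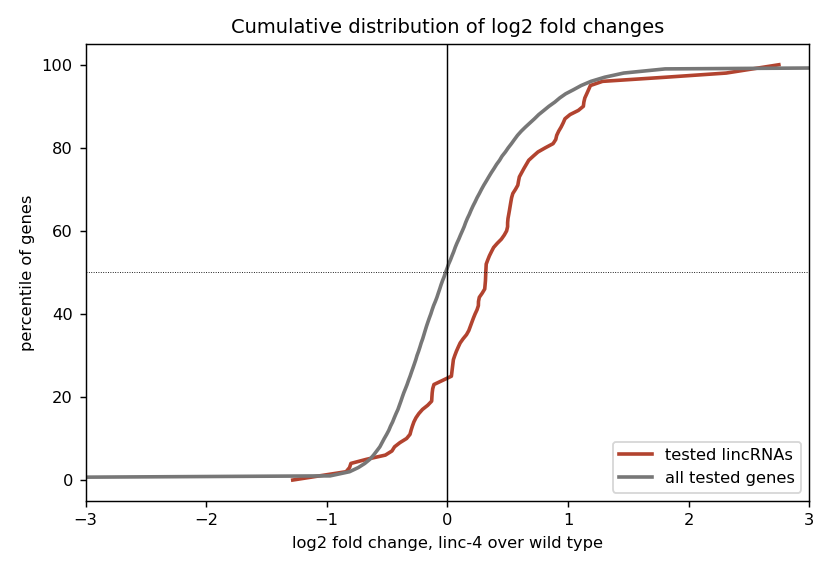
Cumulative distribution of log2 fold changes, linc-4 over wild type, of the 49 tested lincRNAs (red) and of all 13778 tested genes (grey); the dotted line marks the median. The red curve lies to the right of the grey one through most of its length, with medians of 0.32 and -0.01.

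The largest rise was that of linc-37, a 2-exon transcript with 302 bases of exon on chromosome III (832984 to 833347, plus strand). It had 9.35, 9.51 and 8.76 CPM in linc-4 libraries, against 0.257, 2.44 and 1.80 CPM in wild type libraries, and the wild type values rest on 1, 16 and 10 reads. Every linc-4 value was more than any wild type value, and the wild type libraries differed among themselves more than the linc-4 libraries did. The log2 fold change was 2.75 (SE 0.46, adjusted p = 0.0018). Its size rests on single wild type libraries, with 2.07 without the first and 3.42 without the second, though linc-37 passed in both fits.

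Next came linc-38, which has 2 exons and 280 bases of exon on chromosome V (10276942 to 10277353, minus strand) and is the scarcest of the 6. Its levels were 1.79, 2.53 and 1.83 CPM in linc-4 libraries, against 0.257, 0.609 and 0.180 CPM in wild type libraries. These rest on 14, 17 and 24 reads in linc-4 libraries and on only 1, 4 and 1 reads in wild type libraries, which are near or under the floor of 3 reads. linc-38 reached the filter level in no wild type library and was tested through the linc-4 libraries alone, so it had to be higher there. Its lack of overlap and its call are therefore no separate support for a rise. The groups did not overlap, and the log2 fold change came to 2.29 (SE 0.44, limma-voom, adjusted p = 0.0043). The ratio of the summed reads, scaled to library size, was 5.30 with a 95% interval of 2.29 to 15.1 from counting error alone. Where limma-trend took the place of voom the fold change was smaller, 1.18 on log2(CPM + 1) and 1.61 on log2(CPM + 0.5), and linc-38 passed in both.

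The most deeply covered of the 6 was linc-15, with 2 exons and 338 bases of exon on chromosome X (11991484 to 11991933, minus strand). It had 75.5, 71.5 and 68.6 CPM in linc-4 libraries, against 24.9, 35.3 and 35.5 CPM in wild type libraries. The lowest linc-4 value was well above the highest wild type value, and the log2 fold change was 1.17 (SE 0.16, adjusted p = 0.00063). Also well covered was linc-8, with 5 exons and 878 bases of exon on chromosome II (2501838 to 2503802, minus strand), the chromosome that carries linc-4. Its levels were 43.4, 43.5 and 48.9 CPM in linc-4 libraries, against 23.9, 29.5 and 26.5 CPM in wild type libraries. The groups did not overlap, and the log2 fold change was 0.76 (SE 0.15, adjusted p = 0.0061). In both genes the 3 libraries of a group lay close together, except that linc-15 was lower in the first wild type library. Their fold changes have the smallest standard errors of the 6.

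A further X-linked gene, linc-34, has 2 exons and 524 bases of exon (13400747 to 13401468, minus strand). It had 7.55, 6.68 and 9.14 CPM in linc-4 libraries, against 3.86, 2.28 and 4.69 CPM in wild type libraries. The groups did not overlap, and the log2 fold change was 1.20 (SE 0.29, adjusted p = 0.014). Its call depended on 1 library: without the second wild type library, the lowest, the log2 fold change was 0.84 and the adjusted p 0.0505. The last, linc-24, has 3 exons and 520 bases of exon on chromosome III (1370495 to 1371568, plus strand). It had 7.55, 6.09 and 6.85 CPM in linc-4 libraries, against 4.89, 3.81 and 2.71 CPM in wild type libraries. The groups did not overlap, and the log2 fold change was 0.89 (SE 0.26, adjusted p = 0.031). This is the least firm of the 6 calls: it was lost without any 1 of the linc-4 libraries or without the third wild type library (adjusted p 0.059 to 0.125), and it was not made in the authors' deposited table (adjusted p = 0.0855). The calls of linc-37, linc-38, linc-15 and linc-8 held in all 6 fits with 1 library left out, with adjusted p-values of at most 0.0353. Of these, linc-38 was tested through its linc-4 libraries alone, so its calls in those fits are no separate support for a rise.

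**Figure D4:**
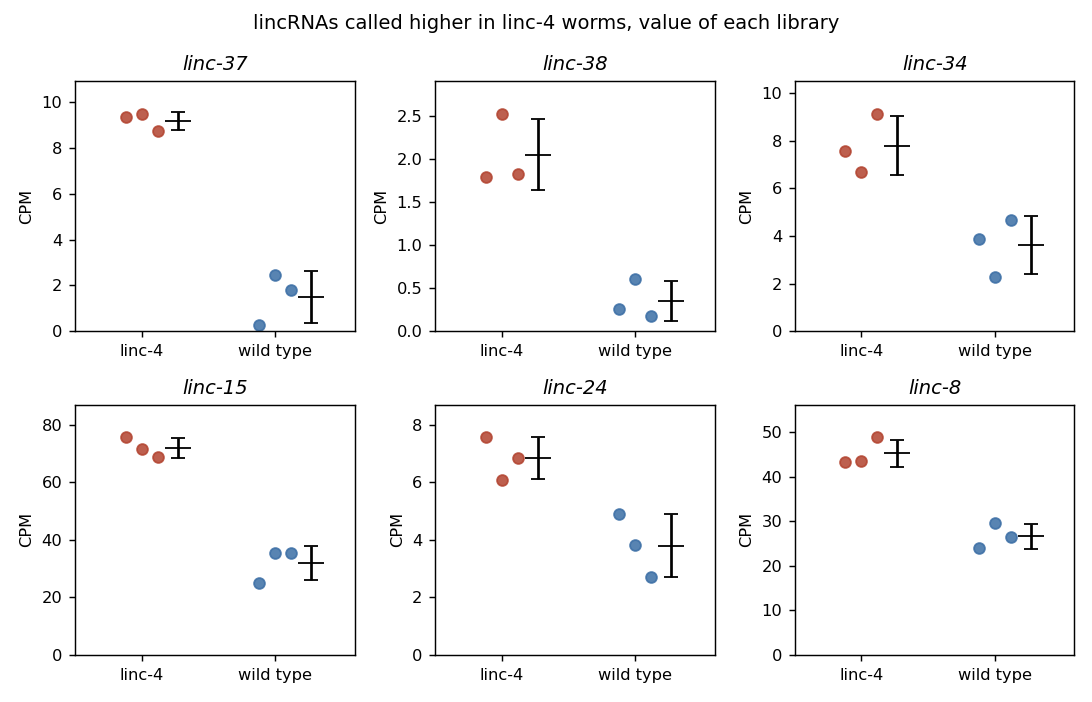
CPM of the 6 lincRNAs called higher, 1 panel a gene, with linc-4 libraries left (red) and wild type libraries right (blue); points are libraries, crosses with bars are the mean and SD of 3, and each vertical axis starts at 0. In every panel all 3 linc-4 points lie above all 3 wild type points, from 1.79 to 2.53 CPM against 0.180 to 0.609 CPM in linc-38 up to 68.6 to 75.5 CPM against 24.9 to 35.5 CPM in linc-15.

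Groups did not overlap in 9 more lincRNAs that did not pass the test. In all, 13 of 49 tested lincRNAs had 3 linc-4 values above all 3 wild type values, a share that over all tested genes was 21.2%, and 2 of 49 had all linc-4 values below, which over all tested genes was 17.7%. Of the 13, linc-19 and linc-38 passed the filter through the linc-4 libraries alone and had to be higher there. On the higher side the uncalled ones were linc-19, linc-50, linc-46, linc-36, linc-14, linc-25 and linc-6, with log2 fold changes of 0.46 in linc-6 to 1.13 in linc-19. Their adjusted p-values in limma-voom ran between 0.074 in linc-50 and 0.18 in linc-25. The best covered of them was linc-6, an unspliced 174-base transcript on chromosome X, with 19.3, 22.7 and 18.4 CPM in linc-4 libraries, against 12.1, 15.5 and 15.5 CPM in wild type libraries. Its log2 fold change was 0.46 (SE 0.18, adjusted p = 0.089). linc-50, also unspliced, on chromosome IV, had 2.30, 3.12 and 2.28 CPM in linc-4 libraries, against 1.03, 1.67 and 0.902 CPM in wild type libraries. Its log2 fold change was 0.98 (SE 0.36, adjusted p = 0.074), and it passed when limma-trend on log2(CPM + 1) took the place of voom (adjusted p = 0.047).

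On the lower side the groups were apart in linc-44 and linc-76, neither of which passed. linc-44, on chromosome II, had 1.92, 1.49 and 1.52 CPM in linc-4 libraries, against 3.34, 2.44 and 3.07 CPM in wild type libraries. The 2 sets of values were apart, but they rest on 10 to 20 reads a library, and the log2 fold change was -0.82 (SE 0.31, limma-voom, adjusted p = 0.076). linc-76, on chromosome III, had a log2 fold change of -0.22 (adjusted p = 0.40), and its exons overlap those of Y48A6C.4 and Y48A6C.8. The lowest fold change of all tested lincRNAs was that of linc-152, also on chromosome II. It had 2.05, 1.63 and 0.609 CPM in linc-4 libraries, against 3.09, 1.67 and 4.69 CPM in wild type libraries. The third linc-4 library was the lowest and the third wild type library the highest, the groups overlapped at the second wild type library, and the log2 fold change was -1.28 (SE 0.49, adjusted p = 0.084). Without that library it was -1.76 and passed (adjusted p = 0.017). The next lowest were linc-81, linc-164 and linc-12, with log2 fold changes of -0.80, -0.48 and -0.43 and adjusted p-values of 0.17, 0.46 and 0.36 in that order.

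Some further lincRNAs near the threshold had overlapping groups. linc-10, on chromosome II, had 1.54, 2.67 and 2.74 CPM in linc-4 libraries, against 1.54, 0.761 and 0.902 CPM in wild type libraries. The first library of each group lay at about the same level, and the log2 fold change of 1.13 (SE 0.41) had an adjusted p of 0.069 in limma-voom, which was 0.045 without the first linc-4 library. linc-58, on chromosome I, had 2.05, 2.53 and 1.52 CPM in linc-4 libraries, against 0.257, 1.83 and 1.08 CPM in wild type libraries. Its second wild type library lay within the range of the linc-4 libraries. Its log2 fold change stood at 0.91 (SE 0.49, adjusted p = 0.21), and without that library at 1.53 (adjusted p = 0.047).

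The 125 lincRNAs below the filter took up, as a sum, nearly the same share of the reads in both groups. Together they had 1498 reads in linc-4 libraries and 875 in wild type libraries, a ratio of 0.990 when scaled to library size, with a 95% counting interval of 0.910 to 1.08. Their summed levels were 56.0, 55.9 and 52.2 CPM in linc-4 libraries, against 58.6, 46.0 and 62.2 CPM in wild type libraries. Of the 84 with at least 10 reads in all, 45 had a scaled ratio above 1 and 39 below 1. The counting interval of the ratio, which leaves out the spread between libraries, lay above 1 for 8 of them and below 1 for 7. The share of all untested genes with such intervals was not computed, so these counts are not set against a background. On the higher side were linc-84, linc-48, linc-18, linc-68, linc-103, linc-66, linc-43 and linc-65. linc-84, for example, had 10, 12 and 22 reads in linc-4 libraries and 2, 3 and 4 reads in wild type libraries, a scaled ratio of 2.83 (1.36 to 6.58). For linc-48, 10, 14 and 19 reads in linc-4 libraries stood against 0, 5 and 3 reads in wild type libraries, a ratio of 3.11 (1.44 to 7.65). For linc-65, 12 reads in linc-4 libraries stood against 0 in wild type libraries.

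On the lower side were Y71F9AM.9, linc-30, linc-160, linc-128, linc-147, linc-166 and linc-148. linc-30, on chromosome I, had 3, 1 and 7 reads in linc-4 libraries, against 7, 9 and 12 reads in wild type libraries, although the linc-4 libraries were deeper. The scaled ratio was 0.227 (0.102 to 0.471), and linc-30 is the lincRNA that the authors' deposited table calls lower (log2 fold change -2.23, adjusted p = 0.0266). linc-160, on chromosome V, had 3, 4 and 5 reads in linc-4 libraries, against 6, 7 and 11 reads in wild type libraries, a ratio of 0.289 (0.132 to 0.601). With no filter on low counts, 166 lincRNAs were tested, 11 were called higher and 4 lower, and the median log2 fold change was 0.059. Over all genes in that fit 7.33% were called higher and 3.10% lower, so the shares of lincRNAs are near the background. The 5 added on the higher side were linc-43, linc-48, linc-65, linc-66 and linc-68, and the 4 on the lower side were linc-30, linc-160, linc-71 and linc-112. Both linc-71, with 1 read in linc-4 libraries against 6 in wild type libraries, and linc-112, with 0 reads in linc-4 libraries against 3 in wild type libraries, lie near the floor of 3 reads.

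Summed over all 174, lincRNA levels were 667, 677 and 661 CPM in linc-4 libraries, against 495, 534 and 545 CPM in wild type libraries. The linc-4 libraries were all higher, with means of 668 ± 7.94 CPM in linc-4 worms and 524 ± 26.5 CPM in wild type worms (SD, n = 3 each). The 6 called lincRNAs made up 145, 140 and 144 CPM of this in linc-4 libraries, against 58.1, 74.0 and 71.4 CPM in wild type libraries. These 6 were picked for higher levels in the same linc-4 libraries, so this difference between groups followed from the choice. Without linc-7, which alone held 24.0% to 28.8% of the sum in linc-4 libraries and 24.8% to 33.0% in wild type libraries, the means were 489 ± 18.0 CPM in linc-4 worms and 379 ± 26.8 CPM in wild type worms. The linc-4 libraries were also higher in the sperm and muscle marker sums given above, and lower in the oocyte and germline sum and in the intestine sum. The part of those tissue differences in the summed lincRNA level was not tested.

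The lincRNAs lie on all 6 chromosomes, and so did those tested. Chromosome X carries 36 of them, V 34, II 33, IV 26, I 23 and III 22. Of the 6 called, 2 lie on chromosome III, 2 on X, 1 on II and 1 on V, and none on I or IV. Of all tested genes 8.15% were called higher on chromosome III, 8.41% on X, 11.99% on II, 15.4% on V, 10.03% on I and 13.7% on IV. Tested lincRNAs had median log2 fold changes of 0.60 on chromosome III (8 lincRNAs), 0.50 on I (5), 0.33 on X (8), 0.32 on II (13), 0.24 on V (8) and 0.05 on IV (7). Over all tested genes the chromosome medians lay between -0.09 on III and 0.07 on V. The linc-4 gene itself lies on chromosome II (6268939 to 6269516, plus strand). Within 1 Mb of it lie 8 lincRNAs, of which 3 were tested and none was called. The nearest of them, linc-27, lies 100211 bases away, with a log2 fold change of 0.32 (SE 0.41, adjusted p = 0.61). The other 2 tested, linc-44 and linc-35, had log2 fold changes of -0.82 and 0.58.

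Called lincRNAs were of ordinary length and were all spliced. Their summed exons had a median of 429 bases (280 to 878), against 465 bases for the tested and 456.5 bases for all 174. Of the 6, 4 have 2 exons, linc-24 has 3 and linc-8 has 5, while 55 of all 174 and 10 of the 49 tested have 1 exon. Some lincRNAs overlap other genes despite their class, and the sources used here do not state whether reads were counted by strand, so reads of overlapping genes cannot be told apart. Any annotated gene overlaps 62 of the 174 and 18 of the 49 tested, and the exons of another counted gene overlap those of 25 of the 174 and of 4 tested ones, linc-76, linc-2, linc-49 and linc-77. None of the 6 called lincRNAs shares exon bases with a counted gene. linc-15 lies inside the span of ucr-2.1, a gene for a subunit of the mitochondrial cytochrome bc1 complex on the opposite strand, without touching its exons. linc-24 overlaps the piRNA gene 21ur-9823 and linc-8 the ncRNA genes F59H5.4 and F59H5.5, for which the table gives no counts. Among the 31 tested lincRNAs that overlap no annotated gene, 3 were called higher, linc-34, linc-37 and linc-38, near the 11.5% of all tested genes, and the median log2 fold change was 0.26.

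Of the genes beside the called lincRNAs, 2 passed the test, both of them higher. linc-37 lies between ceeh-1 and zip-2. Its neighbour on the opposite strand, ceeh-1, which encodes an epoxide hydrolase, starts 707 bases away and had 27.7 ± 2.18 CPM in linc-4 worms and 19.4 ± 0.931 CPM in wild type worms (SD, n = 3 each). It rose by a log2 fold change of 0.51 (SE 0.16, limma-voom, adjusted p = 0.039). zip-2, for a bZIP transcription factor of the pathogen response, lies 511 bases downstream on the same strand as linc-37 and did not pass, at a log2 fold change of 0.04 (SE 0.15, adjusted p = 0.87). The other case is linc-15, 2833 bases from C49F5.7, which had 196 ± 5.59 CPM in linc-4 worms and 103 ± 16.2 CPM in wild type worms. C49F5.7 rose by a log2 fold change of 0.94 (SE 0.15, adjusted p = 0.0013), close to the 1.17 of linc-15. On its other side, 192 bases away, C49F5.6 had a log2 fold change of -0.43 (adjusted p = 0.28), and ucr-2.1 around it had 0.28 (adjusted p = 0.19).

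The neighbours of the other 4 did not pass the test. linc-38 lies 474 bases from lys-1, a lysozyme gene, with a log2 fold change of 0.39 (SE 0.16, adjusted p = 0.11), and 6628 bases from ric-4, the worm SNAP-25 gene of synaptic vesicle release, with 0.28 (adjusted p = 0.20). Beside linc-34 lie F02C12.1, at 615 bases, with a log2 fold change of 0.32 (adjusted p = 0.25), and F02C12.3, at 3037 bases, with 0.01. Beside linc-8, the values were negative, -0.39 in gbas-1 at 1076 bases (adjusted p = 0.11) and -0.49 in F53G2.1 at 5197 bases (adjusted p = 0.38). The nearest tested genes to linc-24 are farther off, fbxa-27 at 25803 bases with -0.48 (adjusted p = 0.18) and Y82E9BR.5 at 13252 bases with 0.002. Closer genes beside linc-24, linc-34 and linc-38 were below the filter. In all, 2 of the 12 nearest tested genes of called lincRNAs were higher, a share near the 11.5% of all tested genes, and none was lower, with a median log2 fold change of 0.03. Of the 85 beside uncalled lincRNAs, 6 were higher and 7 lower, with a median of -0.003.

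**Figure D5:**
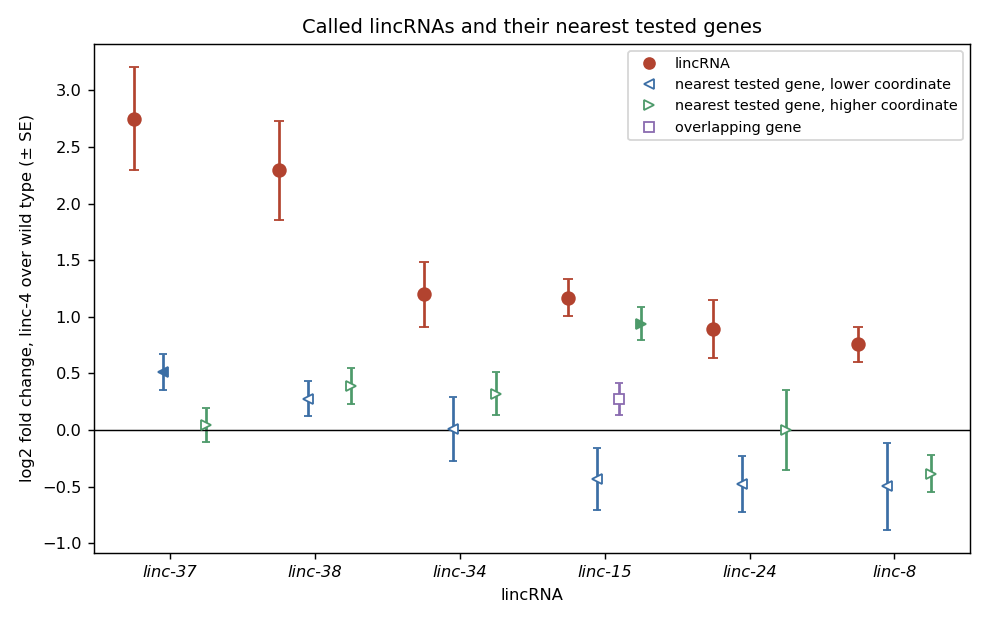
Log2 fold change, linc-4 over wild type, with its standard error, of the 6 called lincRNAs (red circles), of the nearest tested gene on each side (triangles) and of the gene around linc-15 (square); filled symbols have an adjusted p under 0.05. Only ceeh-1 beside linc-37 (0.51) and C49F5.7 beside linc-15 (0.94) are filled among the neighbours, and each lies below its lincRNA.

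Among neighbours of uncalled lincRNAs, C04C11.25, 3144 bases from linc-5, had the largest fold change. It had 7.69 ± 1.37 CPM in linc-4 worms and 0.812 ± 0.0785 CPM in wild type worms (SD, n = 3 each), 8.31-fold higher (adjusted p = 0.00020), while linc-5 itself had a log2 fold change of 0.32 (adjusted p = 0.21). The wild type level of C04C11.25 lay under the 1.43 CPM of the filter. C04C11.25 was therefore tested through the linc-4 libraries alone and had to be higher there, so its call is no separate support for a rise. Genes beside uncalled lincRNAs that fell include lin-23, which encodes an F-box protein of an SCF ubiquitin ligase and lies 1418 bases from linc-27. It had 18.1 ± 1.57 CPM in linc-4 worms and 32.1 ± 1.05 CPM in wild type worms, a log2 fold change of -0.84 (adjusted p = 0.0034). Another is glh-1, for a Vasa-like helicase of germ granules, 2866 bases from linc-53, with a log2 fold change of -0.67 (adjusted p = 0.0092), while linc-53 had 0.50 (adjusted p = 0.31). These 3 neighbours were chosen after their values were seen.

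Set beside other classes of gene, lincRNAs stood near protein-coding genes in the share called higher and above them in the median. Of 13444 tested protein-coding genes 11.6% were higher and 7.27% lower, with a median log2 fold change of -0.02. Of 277 tested pseudogenes 8.30% were higher and 3.97% lower, with a median of -0.03. Of antisense RNAs, 6 of 100 passed the filter, with 1 called higher, none lower and a median of 0.38. The lincRNAs were measured less precisely than most genes, with a median standard error of 0.32 on the log2 scale against 0.21 over all tested genes. At similar reads the gap was smaller, 0.42 against 0.38 at 50 to under 100 reads and 0.18 against 0.17 at 500 or more. The classes of gene were not matched for reads. At 100 to under 200 reads the median fold change of lincRNAs was not above that of all tested genes, while in the other classes of reads it was.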

How the data were processed

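Polyadenylated RNA of whole adult worms was measured by RNA sequencing in 3 linc-4 and 3 wild type libraries. Per the submitters' processing notes, the build was WBcel235 and the tools were DESeq2 1.22.2, HTSeq 0.12.4, TopHat2 2.1.1 and cutadapt 2.10, with no settings or strandedness stated in the sources used here. The authors' deposited table gives raw read counts for 22389 of 46904 rows and a question mark in the others. It also gives their own comparison, of which 98.79% of log2 fold changes have the sign of linc-4 minus wild type. Totals were 3736372 to 12790323 reads a library.

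From the counts, CPM were computed on library sizes scaled by trimmed means of M values, and genes were tested with limma-voom (limma 3.58.1, R 4.3.3), linc-4 over wild type, 2-sided, with Benjamini-Hochberg adjustment over all 13778 tested genes and a threshold of 0.05. Rows with a question mark were left out, and the other rows hold whole read counts. No count model was fitted to them, and limma-voom was kept from earlier work on the same counts. Tested genes had 15 reads in all and, in at least 3 libraries, a CPM equal to 10 reads in a library of median size. Ratios of summed reads carry 95% exact counting intervals, which leave out the spread between libraries. Positions, spans and neighbours came from the authors' deposited table, and exons, their lengths and their overlaps from Ensembl release 115. That release lists all 174 members as lincRNA, 173 of them at the table's coordinates.

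Members, marker lists and tests were chosen with earlier results of these data known. Genes named were every called member, tested members whose groups do not overlap, the 10 highest by mean CPM, the 5 highest and 5 lowest fold changes, members whose call changes under an alternative, and genes beside called members. Outside that rule, after their values were seen, untested members were named by their counting interval or their call with no filter, linc-168 by its level per kb, linc-27 and linc-35 by their distance to linc-4, and C04C11.25, lin-23 and glh-1 beside uncalled members. Also outside it, linc-2, linc-49 and linc-77 were named for exons that overlap a counted gene, and linc-53 as the lincRNA beside glh-1. Tried as alternatives were upper-quartile and median-of-ratios scaling, no filter, a mean count of at least 10, the replicate number as a block, each library left out, limma-trend on log2(CPM + 1) and log2(CPM + 0.5), the authors' comparison, and only members that overlap no gene.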

Additional observations from a re-analysis of the deposited data

How the results depend on the processing

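The median log2 fold change of the tested lincRNAs, 0.32, stayed above 0 under every alternative run, while the counts of 6 higher and 0 lower calls moved under some. With no filter on low counts, 11 were higher and 4 lower and the median was 0.059, over 166 lincRNAs of which most hold few reads. Restricted to lincRNAs that overlap no gene, 3 were higher, of 31 tested. By the authors' deposited table, 5 were higher and 1 lower, with a median of 0.21 over 133 lincRNAs. Upper-quartile scaling gave a median of 0.43 beside 0.10 for all tested genes, against -0.01 for all tested genes with trimmed means, and 9 higher calls. Leaving out 1 library at a time gave 5 to 7 higher calls, 0 to 1 lower call and medians of 0.28 to 0.43; all 6 calls held only without the first wild type library. Median-of-ratios scaling and a mean count of at least 10 gave 6 higher calls each, and limma-trend 7 with either pseudocount. The shares over all tested genes are not given here for these settings or for the replicate block. They are also not given for most fits with 1 library left out. Those counts therefore do not show whether calls of lincRNAs moved apart from calls of all genes.

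Same-numbered libraries had correlations of their deviations from group means of 0.0966, -0.111 and -0.409, so no joint deviation was seen. Deviations from a mean of 3 libraries depend on one another, so these correlations cannot decide whether the numbers pair the libraries. Across numbers, the correlation was 0.486 for linc-4 replicate 3 with wild type replicate 2. It was 0.405 for linc-4 replicate 1 with wild type replicate 3, and -0.431 for linc-4 replicate 1 with wild type replicate 2. No such pairing was modelled. With the replicate block 5 lincRNAs were called higher and linc-24 was not (adjusted p = 0.060). Depth limits the rest, since 125 of 174 lincRNAs had too few reads to be tested.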
